A study of Mus musculus with 6 samples.

Results

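The mitochondrial ribosomal protein genes are the 78 protein-coding genes of the deposited count table whose symbol begins with Mrpl or Mrps and a number. They are 78 of the 54532 genes in the table, with 49 named Mrpl for the large ribosomal subunit and 29 named Mrps for the small one. The choice rests on gene names alone and used no measured value. The study sequenced whole mouse testes, with 3 WT libraries and 3 labelled 1700052I22Rik-KO, a knockout of a long non-coding RNA gene. The sources used here give neither strain nor age, neither the deleted stretch nor whether each library is a separate animal. The p-values therefore measure the spread between these libraries, which may be technical. The comparison of the genotypes addressed what this transcript does in spermatogenesis.

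Mitochondria hold their own ribosome, which translates the few messenger RNAs encoded by the mitochondrial genome, all of them subunits of the respiratory chain and ATP synthase. Its ribosomal RNAs come from the mitochondrial genome, but every protein of it is encoded in the nucleus, made in the cytosol and imported. Some of these proteins descend from bacterial ribosomal proteins, and others were added in mitochondria. Names do not always follow structure. Mrps18a and Mrps30 encode proteins of the large subunit, and Mrps36 encodes a part of the 2-oxoglutarate dehydrogenase complex and not of the ribosome. In the testis, mitochondria change shape and number as germ cells pass through meiosis and become sperm.

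Promoters of the members are shown first, because short motifs in them are a feature the choice by name did not use. RefSeq promoter sequences (build GRCm38.p6, 250 bases before to 50 bases after the start) were matched by symbol for 69 of the 78 members. Each stretch below holds the 150 bases before the RefSeq start, 5′ to 3′ on the gene's strand. Capitals mark matches to 3 motifs searched on both strands, GCGCATGCG for NRF1, CCGGAAG for ETS factors such as GABPA, and AAGATGGCG for YY1. None of the motifs searched contains another. Mrpl22 is shown for its pair of NRF1 and ETS matches, Mrpl17 for an NRF1 match and Mrpl52 and Mrps18a for ETS matches. Mrps12 had the second smallest p of all members, and its ETS match lies outside the stretch printed, as do an ETS match of Mrpl17 and a YY1 match of Mrps18a.
Mrpl22 (chr11:58171514-58171663, plus strand): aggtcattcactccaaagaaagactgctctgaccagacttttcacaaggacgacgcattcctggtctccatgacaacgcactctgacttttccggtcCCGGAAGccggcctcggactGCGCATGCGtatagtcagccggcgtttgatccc
Mrpl17 (chr7:105811088-105811237, minus strand): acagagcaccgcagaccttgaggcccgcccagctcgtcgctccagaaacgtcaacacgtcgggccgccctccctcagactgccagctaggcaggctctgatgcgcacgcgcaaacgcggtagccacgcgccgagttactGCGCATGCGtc
Mrpl52 (chr14:54426759-54426908, plus strand): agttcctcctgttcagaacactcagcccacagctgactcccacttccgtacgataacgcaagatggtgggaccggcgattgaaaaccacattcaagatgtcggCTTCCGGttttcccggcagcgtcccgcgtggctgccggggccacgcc
Mrps18a (chr17:46110854-46111003, plus strand): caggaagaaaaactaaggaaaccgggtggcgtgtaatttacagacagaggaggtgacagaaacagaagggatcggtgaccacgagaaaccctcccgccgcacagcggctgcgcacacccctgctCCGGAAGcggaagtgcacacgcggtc
Mrps12 (chr7:28741822-28741971, minus strand): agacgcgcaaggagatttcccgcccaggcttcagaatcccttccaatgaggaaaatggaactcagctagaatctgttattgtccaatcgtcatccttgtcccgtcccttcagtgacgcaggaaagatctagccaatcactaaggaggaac

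Matches to these 3 motifs were more frequent in the members' promoters than in those of other genes. NRF1 and GABPA are transcription factors known for driving nuclear genes of mitochondrial proteins. The NRF1 motif was in 7 of 69 members' promoters (10.1%), against 400 of 11826 tested protein-coding genes (3.38%) and 2.5% of all 16492 protein-coding genes with a promoter of the same length. For the ETS motif the counts were 24 of 69 (34.8%) against 16.2% of tested genes and 12.3% of all. The YY1 motif was in 8 of 69 (11.6%), against 2.77% and 2.04%. Some matches lie far from the gene start as deposited. For Mrpl35, Mrpl36 and Mrps24, with YY1 matches, the RefSeq start was 3185, 2496 and 7979 bases away. For Mrpl33, with an ETS match, it was 17016 bases away. At least 1 of the 3 motifs was in 34 members' promoters (49.3%) and in 20.9% of the tested genes' promoters. For 3 motifs of other factors the members' share was not above that of tested genes. The GC box, GGGCGG, was in 49.3% of members' promoters and 60.1% of tested genes' promoters. The TATA motif, TATAAA, was in 5.8% and 7.38%. The cyclic AMP response element, TGACGTCA, was in 2.9% and 2.98%. Members' promoters held a median of 21 CG dinucleotides, tested genes' promoters a median of 19 CG dinucleotides. Large subunit genes carried 6 of the 7 NRF1 matches, with 43 of the 69 promoters. A match is a string of letters and does not show that a factor binds there, and no test was made of these shares.

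**Figure D1:**
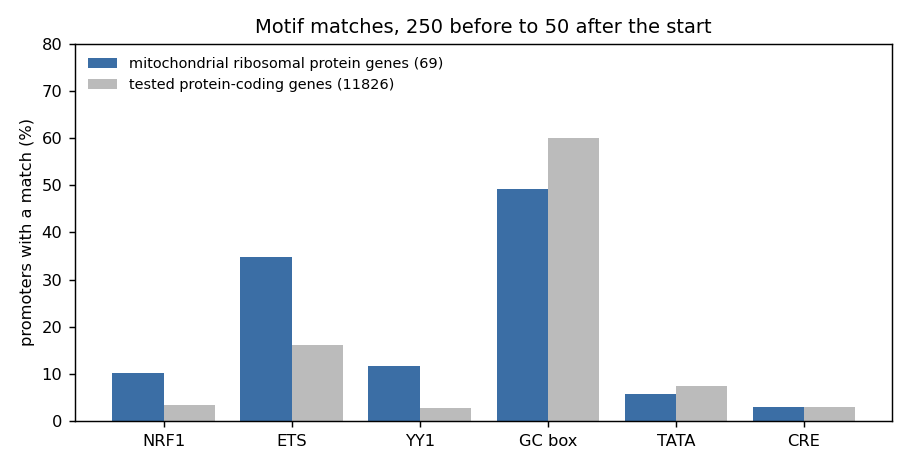
Bars give the percentage of promoters (250 bases before to 50 after the RefSeq start) that hold each motif on either strand, for 69 mitochondrial ribosomal protein genes (blue) and 11826 tested protein-coding genes (grey). The NRF1, ETS and YY1 bars are taller for the members (10.1%, 34.8% and 11.6% against 3.38%, 16.2% and 2.77%), and the GC box bar is lower.

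Members often started back to back with another gene. For 19 of 78 members (24.4%) a protein-coding gene on the other strand started at most 1000 bases upstream. Of tested protein-coding genes 1419 of 15178 (9.35%) had such a partner. Pairs whose 5′ ends overlap were not counted, such as Mrpl46 and Mrps11, which share 173 exonic bases. The partners counted included Sars2, the mitochondrial seryl-tRNA synthetase, 172 bases from Mrps12, and Twnk, the mitochondrial DNA helicase, 116 bases from Mrpl43. Psma2, a proteasome subunit gene, lay 75 bases from Mrpl32. Members were spread over 17 chromosomes, with 11 on chromosome 11 and 8 on chromosome 17. The members' exons overlapped those of another annotated gene in 33 of 78 cases (42.3%), against 34.0% of tested protein-coding genes, and for 6 members over 30% of the exonic bases were shared. Reads from shared exons cannot be assigned with certainty, because the strand setting of the counting is not given.

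Total counts per library spanned 17635045 to 18117593, lowest in KO 2 and highest in WT 1, and members held 38819 to 44582 counts per library, 0.2201% to 0.2505% of the total. The labelled genotype was checked on 1700052I22Rik, which had 185, 175 and 218 counts in the WT libraries and 0 in each KO library. Germ cell markers were in place, with 10 of 10 elongating spermatid genes detected and a summed level of 18160 to 21230 CPM (counts scaled to the library's TMM-adjusted size) over the 6 libraries. Of 19320 genes that passed the low-count filter, edgeR's quasi-likelihood test called 1 (0.00518%), which was 1700052I22Rik itself.

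The members that passed the filter numbered 77 of 78, and their levels spanned a wide range. Mrpl53 was the exception, with 0 counts in each of the 6 libraries. That allows up to 3 counts over them only if reads from shared exons were counted for Mrpl53, which is not known. Of its 790 exonic bases 88.0% are shared with Gm42688, a gene model on the same strand that had 143 counts in all. Levels between genes are compared per kb of exonic length as the deposited table gives it. Among the 77 members the mean level over 6 libraries had a median of 10.85 CPM per kb and ran from 1.03 for Mrps35 to 86.8 for Mrpl54, 84.7-fold apart. The order was nearly the same in both genotypes, with a Spearman rho of 0.991 between the WT and KO mean CPM of the 77 genes, a description across genes measured in the same libraries.

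Large subunit genes were the more abundant group per length. The median was 14.35 CPM per kb for 48 genes named Mrpl and 8.88 for 29 named Mrps. With the length of the principal coding transcript in GENCODE M21 in place of the whole exonic length the medians were 20.6 and 17.97. Assigned by structure, with Mrps18a and Mrps30 as large and Mrps36 left out, the medians were 13.84 and 7.50 per kb of exonic length. Per kb of principal transcript they were then 20.6 and 14.5. The gap thus depends on which length is used and on where these genes are placed. All of the 12 highest members per kb of exonic length were named Mrpl. Mrpl54, a protein added in mitochondria, stood highest at 92.3 ± 10.5 CPM per kb in WT and 81.2 ± 15.05 in KO (SD, n = 3). Mrpl39 followed at 52.3 ± 4.35 and 51.8 ± 0.926, and Mrpl41 at 43.2 ± 0.736 and 40.5 ± 4.12. Mrpl54 and Mrpl39 were also in the top 3 by transcript length, with Mrpl20, an early-binding protein of ribosome assembly, between them.

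Among genes named Mrps the highest per kb were Mrps36, at 22.6 over all libraries, Mrps28, counterpart of a bacterial S1-type protein, at 21.7, and Mrps23 at 17.9 CPM per kb. Per kb of principal transcript Mrps36 stayed highest of these names at 41.0, Mrps18a followed at 37.9, and Mrps28 had 21.7 (rank 29 of 77 members). The lowest of both names per kb of exonic length were Mrps35 (1.03), Mrpl23 (1.08), Mrps25 (1.64), Mrpl19 (1.71), Mrpl33 (1.82) and Mrps34 (2.18). For Mrpl33 and Mrpl23 this depends on the length: per kb of principal transcript they had 27.9 (rank 21) and 7.60 (rank 62). Mrps25, Mrpl19, Mrps35 and Mrps34 ranked 77, 76, 75 and 70 by that length too. Both lengths include bases shared with other genes. Mrps25 shares 69.8% of its 6576 exonic bases with Nr2c2 on the other strand, and Mrpl19 shares 36.0% with Gcfc2, also on the other strand. Mrps34 shares 77.8% of its bases with Mapk8ip3 and Nme3, and Nme3 had 0 counts in all 6 libraries.

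**Figure D2:**
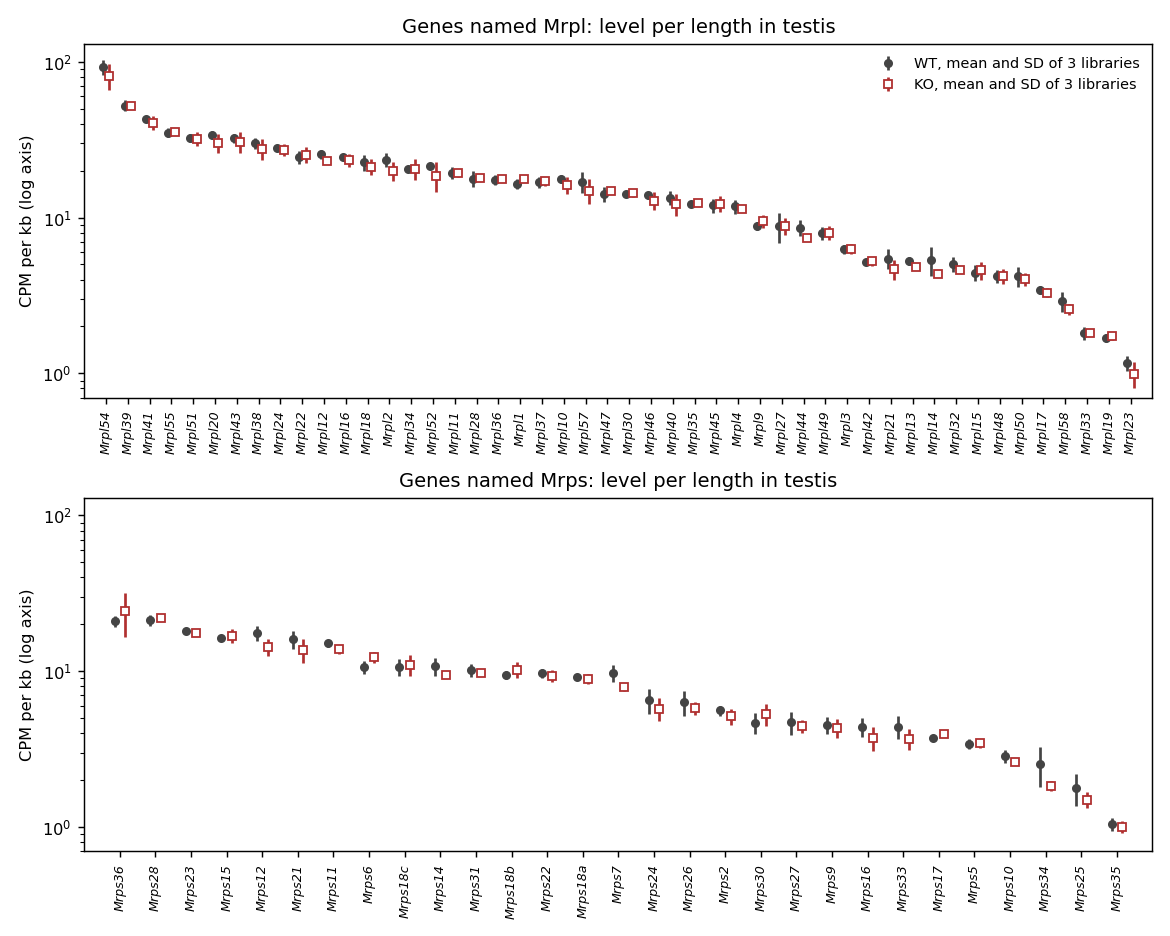
Points give the level of each of the 77 tested members in CPM per kb of exonic length (log axis), WT filled and KO open, with bars for the SD over 3 libraries, genes named Mrpl above and Mrps below, each in order of mean level. Mrpl54 and Mrpl39 lead the upper panel, and the highest Mrps genes reach 22.6. The WT and KO points of many genes lie within each other's bars, and those of others, such as Mrps7 and Mrps12, do not.

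The 3 Mrps18 paralogs, all related to the bacterial protein S18, sit in different places of the ribosome. Mrps18a, in the large subunit, had 34.2, 33.8 and 34.0 CPM in WT libraries against 35.0, 33.9 and 30.2 in KO libraries. Mrps18b, in the small subunit, had 20.2, 18.4 and 20.8 in WT libraries against 18.5, 23.0 and 22.7 in KO libraries. Mrps18c, the counterpart of bacterial S18, had 11.8, 12.8 and 9.96 in WT libraries against 12.5, 9.82 and 13.2 in KO libraries. The KO values of each paralog overlapped the WT values. The 3 genes had 9.09, 9.86 and 10.8 CPM per kb of exonic length, but 37.9, 19.1 and 18.3 per kb of principal transcript. Mrps18b shares 30.5% of its exonic bases with a gene on the other strand.

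Subunits of the ribosome that carry other names had a median of 22.9 CPM per kb over 5 genes, against 10.85 for the members. Dap3, a GTP-binding small subunit protein also called a death-associated protein, had 244.8, 235.3 and 231.1 CPM in WT libraries against 235.9, 236.4 and 251.4 in KO libraries, or 36.9 CPM per kb. The groups overlapped. Aurkaip1 had 34.6 CPM per kb, Chchd1 22.9, Ptcd3 5.75 and Gadd45gip1, of the large subunit, 5.71. Their log2 fold changes (KO minus WT) ran from -0.08 to 0.06, and 0 of the 5 had an unadjusted p under 0.05.

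None of the 77 tested members passed the test between genotypes, where 0.00518% of all tested genes did. By the quasi-likelihood test of edgeR, adjusted by Benjamini-Hochberg over all genes, their adjusted p was 0.965 or higher. DESeq2 and limma-voom also called 0 members, each with 2 at an unadjusted p under 0.05. In whole testis, fewer cells of a type and less RNA per cell cannot be told apart. At an unadjusted p under 0.05 there were 2 members, Mrps7 and Mrps12, both lower in KO, where 4.63% of all tested genes were below it in either direction and 2.22% in the lower direction. The count was 10 without WT 1, 8 without KO 1, and 0 without WT 2, without WT 3 or without KO 3. For these fits the share of all tested genes under that p was not counted, so the members' counts have no background beside them. For 70 of the 77 members the 95% interval of the fold change lay within 1.5-fold in either direction, and for all 77 within 2-fold. The median log2 fold change of members was -0.06, and 48 (62.34%) lay below 0 and 29 above, against a median of -0.0025 and 50.7% below 0 for all tested genes. Tested protein-coding genes alone had a median of -0.01 and 53.45% below 0. The members' median was -0.09 without WT 1, -0.04 without KO 3 and -0.0099 without WT 2.

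Mrps7, a protein of the head of the small subunit that binds its RNA, had the smallest p. Its levels were 17.3, 21.7 and 21.8 CPM in WT libraries against 15.6, 17.6 and 16.3 in KO libraries. WT 1 lay below KO 2, so the groups overlapped. The log2 fold change was -0.30 with a 95% interval of -0.57 to -0.03 (adjusted p = 0.965 in edgeR; 0.362 to 1 over the alternatives). Reads of its ends are uncertain, because 127 of its 2072 exonic bases are shared with Gga3 and 119 with Mif4gd on the other strand.

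Mrps12, whose bacterial counterpart sits at the decoding site and is where streptomycin resistance arises, had 16.6, 20.6 and 17.7 CPM in WT libraries against 16.9, 14.5 and 13.2 in KO libraries. KO 1 lay within the WT values. The log2 fold change was -0.30 (95% interval -0.59 to -0.01), with an adjusted p of 0.965 in edgeR. Sars2, which starts 172 bases away on the other strand, had 7.43, 8.64 and 8.09 CPM in WT libraries against 7.09, 6.64 and 7.58 in KO libraries, a log2 fold change of -0.18.

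Mrps34, a mitochondrial addition to the small subunit that is mutated in some forms of Leigh syndrome, had the lowest log2 fold change of the members, -0.46 (95% interval -0.93 to 0.02). The value was -0.23 without WT 2 and -0.64 without WT 1. It was scarce, at 3.77, 6.74 and 5.12 CPM in WT libraries against 3.66, 4.14 and 3.59 in KO libraries, and the groups overlapped at WT 1. Its 484 counts over all libraries come from a gene with 459 exonic bases of its own. Mrps16, whose loss causes a respiratory chain deficiency in humans, had 10.7, 14.1 and 13.1 CPM in WT libraries against 12.9, 9.36 and 9.93 in KO libraries (log2 fold change -0.23, with its 95% interval between -0.57 and 0.11). Mrps14, of the head of the small subunit, had 30.8, 39.8 and 34.5 in WT libraries against 31.9, 30.5 and 29.96 in KO libraries (log2 fold change -0.19). For both genes a KO library lay inside the WT range.

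Among members, 2 had KO values that were all above the WT values and 0 had KO values all below. Of all tested genes 4.69% and 4.63% did, 9.32% in either direction. Mrps6, counterpart of a bacterial protein of the small subunit platform, had 17.4, 14.5 and 16.9 CPM in WT libraries against 20.5, 17.6 and 18.5 in KO libraries. Its log2 fold change was 0.22 (95% interval -0.05 to 0.48, edgeR adjusted p = 0.965), the highest of the members. Part of its exons is shared with Slc5a3. Mrps17, named for this pattern after its values were seen, had 24.96, 24.96 and 23.1 in WT libraries against 25.2, 25.5 and 26.1 in KO libraries (log2 fold change 0.07).

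The large subunit genes with the smallest p had intervals that all spanned 0. Mrpl2, near the site of peptide bond formation, had 24.5, 28.3 and 29.95 CPM in WT libraries against 26.0, 19.7 and 24.4 in KO libraries. The log2 fold change was -0.24 (95% interval -0.50 to 0.03), and KO 1 lay above WT 1. Mrpl44, a protein with an RNase III-like fold in which variants cause cardiomyopathy, had 12.3, 15.1 and 15.1 in WT libraries against 12.0, 11.7 and 13.0 in KO libraries (log2 fold change -0.21). Only WT 1 overlapped the KO values for Mrpl44. Mrpl20 had 53.8, 60.2 and 54.7 in WT libraries against 58.7, 46.8 and 45.4 in KO libraries (log2 fold change -0.16). Mrpl54 had 66.8, 77.8 and 83.9 in WT libraries against 80.9, 57.0 and 63.1 in KO libraries (-0.18). In both Mrpl20 and Mrpl54 KO 1 lay among the WT libraries, and KO 2 and KO 3 lay below them. Mrpl14, which faces the small subunit, was scarce, at 5.08 ± 1.09 CPM in WT libraries against 4.13 ± 0.131 in KO libraries (SD, n = 3). Its log2 fold change was -0.30, and the 95% interval reached from -0.73 to 0.14.

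The stalk of the large subunit recruits translation factors, and it is built from Mrpl12, which has also been described as a partner of the mitochondrial RNA polymerase, and Mrpl10. Mrpl12 had 36.1, 39.8 and 41.3 CPM in WT libraries against 37.2, 34.8 and 34.2 in KO libraries. WT 1 lay below KO 1, and the log2 fold change was -0.14 (95% interval -0.34 to 0.06). Mrpl10 had 28.5, 32.4 and 30.1 in WT libraries against 30.1, 28.9 and 23.8 in KO libraries, with a log2 fold change of -0.13. Mrpl58, a peptidyl-tRNA hydrolase built into the ribosome, had 9.70 ± 1.43 in WT libraries against 8.59 ± 0.725 in KO libraries (SD, n = 3), with -0.17 as its log2 fold change. Mrpl3, of the large subunit core, and Mrps22, a mitochondrial addition to the small subunit, had log2 fold changes of 0.0078 and -0.06. Mrps30, a large subunit protein by structure, had 35.2, 32.1 and 26.2 in WT libraries against 28.9, 39.7 and 37.7 in KO libraries, with overlapping groups and a log2 fold change of 0.19. The most abundant members by CPM, not per length, were Mrpl39 and Mrpl51, with 132.6 ± 11.03 and 131.6 ± 8.12 in WT libraries against 131.1 ± 2.34 and 128.9 ± 13.2 in KO libraries (SD, n = 3). Their log2 fold changes were -0.02 and -0.03.

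**Figure D3:**
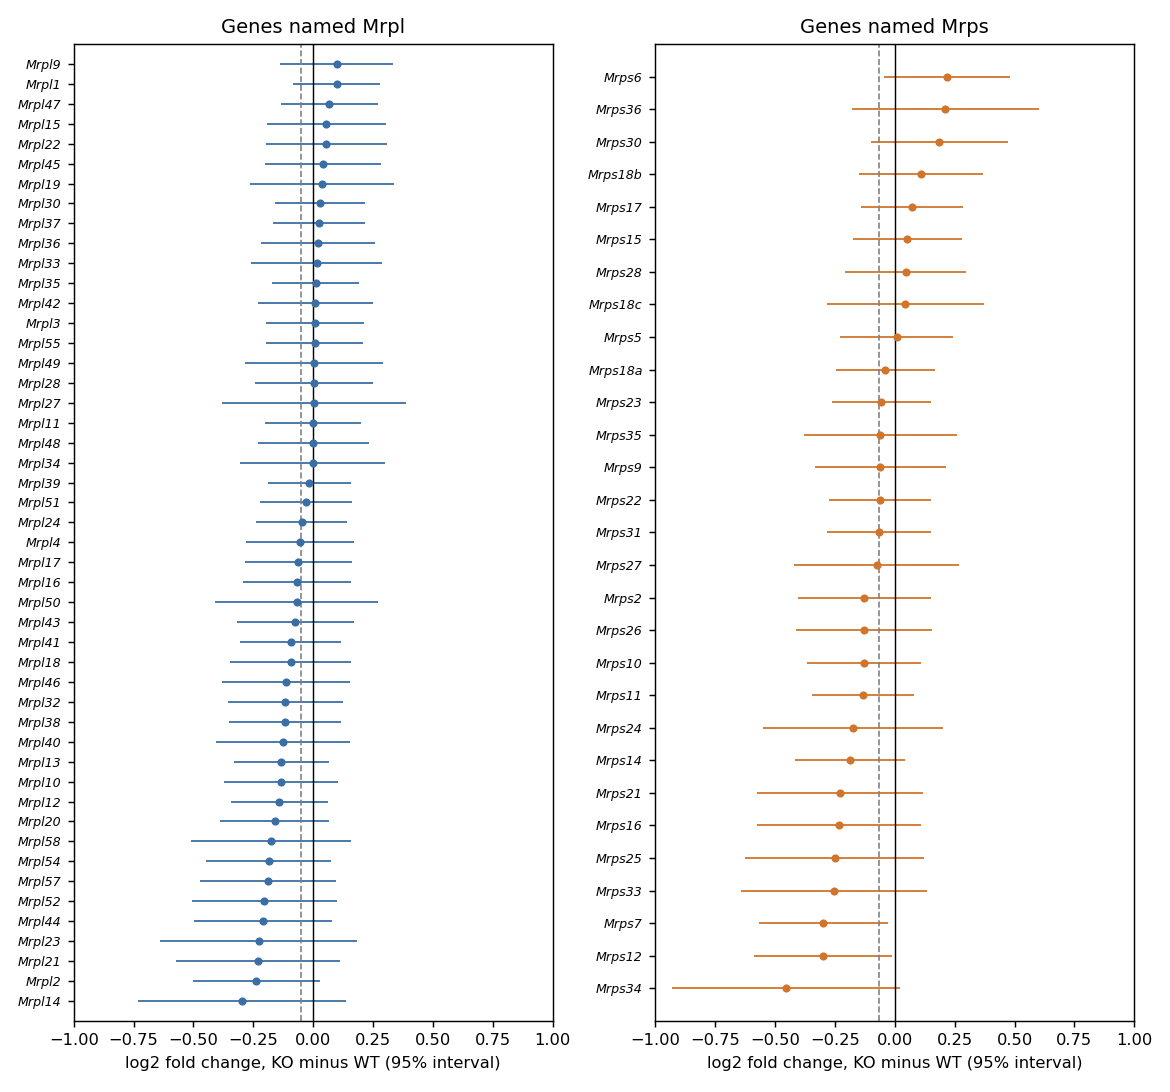
Points give the edgeR log2 fold change (KO minus WT) of each tested member and bars its 95% interval, 48 genes named Mrpl on the left and 29 named Mrps on the right; the solid line marks 0 and the dashed line the median. The bars of Mrps7 and Mrps12 end below 0, the bars of the other 75 cross it, and the medians lie at -0.05 and -0.07.

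Large and small subunit genes were compared as sums per library. Genes named Mrpl summed to 1688, 1846 and 1786 CPM in WT libraries against 1835, 1622 and 1696 in KO libraries. Genes named Mrps summed to 576.8, 638.2 and 610.1 in WT libraries against 596.4, 580.4 and 586.8 in KO libraries. Both sums overlapped between the genotypes. The ratio of the sums was 2.93, 2.89 and 2.93 in WT libraries against 3.08, 2.79 and 2.89 in KO libraries, so the KO libraries lay on both sides of the WT libraries. On the log2 scale the ratio was 1.54 ± 0.0101 in WT libraries against 1.54 ± 0.0703 in KO libraries (SD, n = 3), a difference of 0.0011 that is smaller than either SD. With Mrps18a and Mrps30 moved to the large subunit and Mrps36 left out, the ratio was 1.83 ± 0.0265 and 1.87 ± 0.0706. That difference of 0.0361 was larger than the WT SD and smaller than the KO SD.

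**Figure D4:**
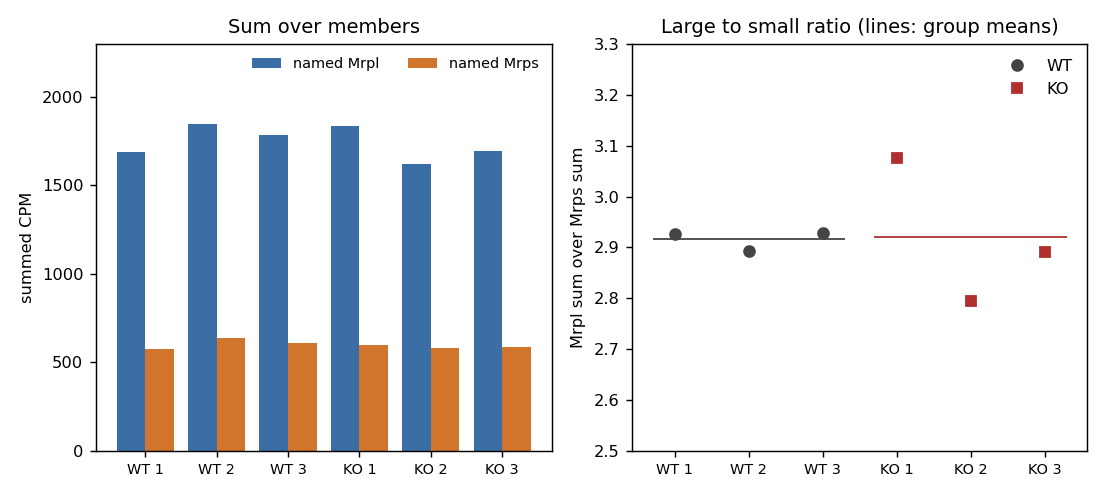
Left, bars give the summed CPM of genes named Mrpl (blue) and Mrps (orange) in each library; right, points give the ratio of the 2 sums per library on an axis that starts at 2.5, with lines at the group means. The 3 WT ratios lie between 2.89 and 2.93, and the KO ratios spread from 2.79 to 3.08.

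By name the median log2 fold change was -0.05 for 48 genes named Mrpl, 28 of them below 0, and -0.07 for 29 named Mrps, 20 of them below 0. With Mrps18a and Mrps30 in the large subunit and Mrps36 left out, it was -0.04 for 50 large subunit genes, 29 below 0. The 26 small subunit genes by structure had -0.10, with 19 below 0, where 53.45% of tested protein-coding genes lay below 0. The difference between the subunits was not tested. The median of Mrpl genes was 0.0017 without KO 2, -0.0085 without WT 2, -0.08 without WT 1 and -0.10 without KO 1. That of Mrps genes was -0.11 without WT 1, -0.11 without KO 2, -0.15 without both WT 1 and KO 2, and -0.04 without WT 2. Members of bacterial descent had a median of -0.05 over 46 genes, with 25 below 0. Mitochondrial additions had a median of -0.07 over 30 tested genes, with 23 below 0.

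Whole libraries differed within each genotype. Relative to the mean of the WT libraries, the median log2 deviation of the 77 members was -0.09, 0.09 and 0.03 in the WT libraries 1 to 3, and 0.03, -0.10 and -0.07 in the KO libraries 1 to 3. Of the 77 members, 30 had their highest value in WT 2 and 17 in KO 1, whereas 27 had their lowest in KO 2, 18 in KO 3 and 15 in WT 1. By this median WT 1 was closer to KO 2 and KO 3 than to the other WT libraries. The members' median coefficient of variation was 9.21% within WT and 9.53% within KO.

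Markers of other cells moved with this pattern in part. The summed level of 10 Leydig cell markers was 337.1, 1046 and 836.5 CPM in WT libraries against 793.1, 376.3 and 582.9 in KO libraries, lowest in WT 1, KO 2 and KO 3, the libraries with the lowest medians of the members. That of 10 macrophage markers was 98.3, 128.5 and 120.7 in WT libraries against 91.7, 86.6 and 99.8 in KO libraries. For 10 Sertoli cell markers it was 1756, 2001 and 1946 in WT libraries against 1704, 1664 and 1759 in KO libraries. In both lists KO 1 lay below WT 1, unlike the members' medians. The sums of Leydig, macrophage and Sertoli cell markers overlapped between the genotypes, those of macrophage and Sertoli cell markers only at WT 1 and KO 3. All 10 Leydig, all 10 macrophage and 8 of 10 Sertoli cell markers had a log2 fold change below 0, and none of these 30 markers was at 0. Of peritubular myoid markers 3 of 5 tested lay below 0, and of endothelial markers 3 of 6. Their sums overlapped, at 328.3 to 365.3 in WT and 327.7 to 381.1 in KO, and at 23.5 to 27.4 and 22.9 to 25.2. The part of these cells in the members' levels was not tested. Germ cell sums overlapped between the genotypes, at 1360 to 1450 and 1420 to 1524 CPM for 10 spermatocyte markers and 1679 to 1861 and 1836 to 1889 for 10 round spermatid markers. For 10 spermatogonia markers they were 196.9 to 212.4 in WT and 187.1 to 202.3 in KO. A log2 fold change below 0 was found for 6 of 10 spermatogonia and 4 of 10 spermatocyte markers. The counts were 2 of 10 for round and 5 of 10 for elongating spermatid markers.

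The RNAs of the mitochondrial ribosome itself also followed the libraries. mt-Rnr1, the small subunit RNA, had 218.0, 107.6 and 119.1 CPM in WT libraries against 109.3, 189.2 and 168.1 in KO libraries. For mt-Rnr2, the large subunit RNA, the levels were 335.7, 164.2 and 168.2 in WT libraries against 140.7, 307.6 and 218.4 in KO libraries. Both were highest in WT 1, KO 2 and KO 3, and their log2 fold changes between genotypes were 0.07 and -0.0033. The kit is named for messenger RNA, and how much ribosomal RNA it leaves and the part of these RNAs in the members' levels were not tested.

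**Figure D5:**
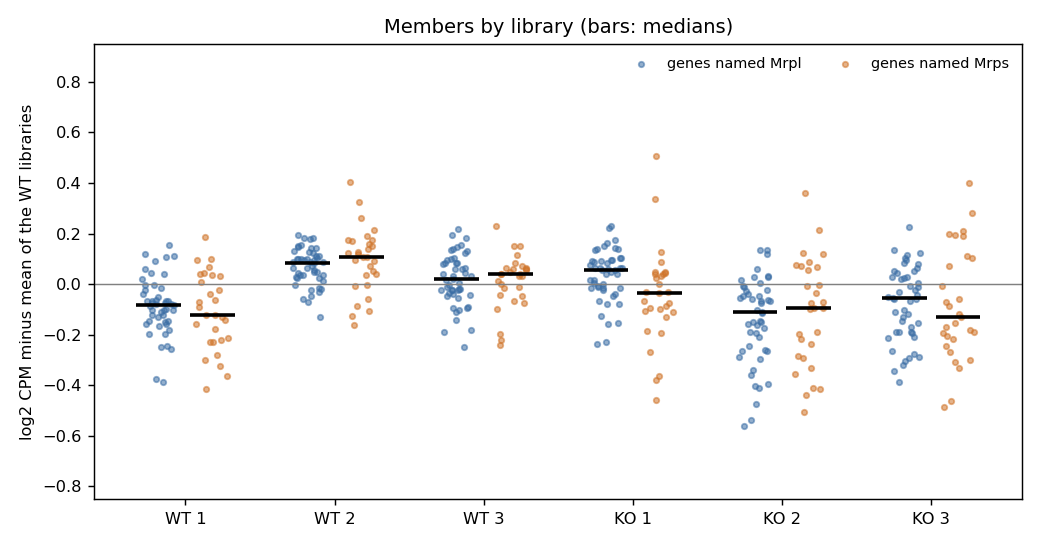
Each point is a tested member's log2 CPM (prior count 2) minus its mean over the WT libraries, genes named Mrpl in blue and Mrps in orange, with bars at the medians. WT 1, KO 2 and KO 3 have medians below 0 for both names, WT 2 and WT 3 above, and KO 1 has 0.06 for Mrpl and -0.03 for Mrps.

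Other genes of mitochondrial translation showed 0 calls in edgeR as well. Of 25 tested genes for ribosome assembly and ribosomal RNA modification 15 lay below 0, with a median log2 fold change of -0.03, and 0 had an unadjusted p under 0.05. Mterf4, which brings a methyltransferase to the large subunit RNA, had 18.7, 18.8 and 18.3 CPM in WT libraries against 16.4, 14.9 and 16.3 in KO libraries (log2 fold change -0.23), with all KO values lower. Tfb1m, which methylates the small subunit RNA, had 49.3, 48.9 and 43.4 in WT libraries against 52.2, 52.5 and 50.8 in KO libraries (0.14), with all KO values higher. Of 15 translation factor genes 10 lay above 0, with a median of 0.04. Guf1, a translocase-like factor, had 4.45 CPM in WT libraries against 5.75 in KO libraries (0.37), and Mtif3, an initiation factor, 18.7 and 21.4 (0.19). Their unadjusted p in edgeR were 0.0663 and 0.111.

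Of 22 genes that charge mitochondrial tRNAs, aminoacyl-tRNA synthetases and the amidotransferase subunits Qrsl1, Gatb and Gatc, 13 lay below 0 (median -0.02), and 1 had an unadjusted p under 0.05. This was Vars2, the valyl-tRNA synthetase, with 10.9, 12.9 and 10.6 CPM in WT libraries against 10.3, 9.08 and 6.17 in KO libraries (log2 fold change -0.43, edgeR adjusted p = 0.965). Of 19 genes of mitochondrial transcription and RNA processing 12 lay below 0 (median -0.02). Tfam, which packs mitochondrial DNA and starts its transcription, had 190.1 CPM in WT libraries against 212.9 in KO libraries (0.16). Of 9 regulators of nuclear mitochondrial genes 8 were tested, with a median of 0.03. Gabpb1, a subunit of the factor that reads the ETS motif, had 30.1, 27.0 and 29.2 in WT libraries against 32.5, 31.6 and 33.8 in KO libraries (0.18, unadjusted p = 0.0833 in edgeR), with all KO values higher.

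The members' median log2 fold change of -0.06 lay nearer to 0 than those of 2 related families. For the 84 tested genes of the cytosolic ribosome it was -0.12 with 72 below 0, and 81 nuclear genes of oxidative phosphorylation had -0.10 with 66 below 0. By library, the median log2 deviations of these families from the WT mean were lowest in KO 2, at -0.20 and -0.21. They were -0.03 and 0.0022 in KO 1 and -0.08 for both in KO 3. The members' median was also lowest in KO 2, at -0.10. The 12 tested messenger RNAs of the mitochondrial genome, which the mitochondrial ribosome translates, had -0.03 with 8 below 0. Per kb of exonic length the members' median of 10.85 CPM stood below the 66.0 of cytosolic ribosomal protein genes and the 37.1 of oxidative phosphorylation genes. These comparisons share all 6 libraries, and the differences between families were not tested.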

How the data were processed

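RNA from 6 whole testes samples was compared, 3 labelled WT and 3 KO. Per the labels' protocols, total RNA was isolated with TRIzol, and a VAHTS mRNA-seq v2 kit was used for the libraries. HISAT2 2.0.0 and the mm10 build are named per the submitters' processing notes, and no source used here gives the counting tool, the annotation release or the strand setting. The table the authors deposited holds raw counts for each Ensembl gene and its exonic length. That length equalled the union of exons in GENCODE M21 for 97.8% of genes and 73 of 78 members. Columns were matched to samples by genotype and number.

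Counts were filtered with filterByExpr (minimum count 10, total 15), scaled by TMM and fitted with edgeR 4.0.16 (glmQLFit, glmQLFTest; R 4.3.3) over 19320 genes, with Benjamini-Hochberg adjustment and a threshold of 0.05. Errors are SDs over 3 libraries, and intervals are 95% intervals from the fit. No 2 libraries agreed within sampling noise (lowest chi-square per degree of freedom 4.33 over 15 pairs), so all 6 were counted. DESeq2 1.42.0 and limma 3.58.1 served as alternatives. On counts simulated for these 19320 genes the test recovered 71.6% of the genes given a 2-fold change and 39.5% at 1.5-fold. Over 3 simulations 190, 201 and 209 genes were changed 1.5-, 2- and 4-fold, and 75, 144 and 196 of them were called. Beside these calls there were 41 false calls, from 57360 tests of unchanged genes. With fewer changed genes the adjusted threshold is harder to pass, so these shares do not carry over to data with 1 call. Named were the knocked-out gene, the 6 members per subunit with the smallest p, the 3 highest and 3 lowest per kb, a set of members with known roles, the member that failed the filter, up to 3 genes per list, and both mitochondrial ribosomal RNAs. The neighbouring genes, the pseudogenes, the printed promoters, Mrps17 and Mrpl51 were chosen after their values were seen. Members, lists and alternatives were chosen with earlier results of these data known.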

Additional observations from a re-analysis of the deposited data

How the results depend on the processing

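The count of 0 members called was the same under all alternatives run: 3 other scalings, 2 other low-count filters, DESeq2, limma-voom, the replicate block, a length trend removed per library, each library left out, and WT 1 and KO 2 left out together. The 2 members with an unadjusted p under 0.05 became 4 with no low-count filter, 1 with the replicate block and 7 without WT 1 and KO 2, and ranged from 0 to 10 with 1 library left out. The share of all tested genes under that p was not counted for these alternatives. The replicate numbers do not pair the libraries: correlations of same-numbered deviations were -0.173, -0.0289 and 0.114, and only number 3 matched best with its own. The block changed no call. Over all genes the count called was 1, and it was 50 with no low-count filter, 2 with DESeq2, 9 without WT 1 and KO 2, and 1 to 3 with 1 library left out. With 1 library left out, the difference in the log2 ratio of large to small subunit sums ranged from -0.037 to 0.0323.

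Genes close to 0 changed sign, and the cause was not tested. Mrpl3 had -0.00467 on library size alone and -0.0976 without WT 1 and KO 2, Mrpl33 -0.0291 without that pair, and Mrpl39 0.00429 with the length trend removed. Leaving out each library in turn gave log2 fold changes from -0.0461 to 0.0488 for Mrpl3, -0.0452 to 0.0872 for Mrpl33, -0.0616 to 0.0525 for Mrpl39, -0.00613 to 0.0854 for Mrpl19, -0.126 to 0.000767 for Mrps22, -0.0829 to 0.0209 for Mrps18a, -0.0485 to 0.168 for Mrps18c, -0.00416 to 0.109 for Mrps28 and -0.134 to 0.0106 for Mrps35. For named members whose sign held, leaving out 1 library moved the value by over 1.5 times in these cases: -0.198 to -0.0387 for Mrpl10, -0.464 to -0.184 for Mrpl14, -0.32 to -0.125 for Mrpl2, -0.286 to -0.0929 for Mrpl20, -0.346 to -0.0826 for Mrpl23, -0.177 to -0.0374 for Mrpl41, -0.342 to -0.0766 for Mrpl54, -0.293 to -0.108 for Mrpl58, -0.271 to -0.0868 for Mrps14, -0.384 to -0.138 for Mrps16, 0.0563 to 0.205 for Mrps18b, -0.0888 to -0.0233 for Mrps23, -0.413 to -0.0763 for Mrps25, 0.0741 to 0.314 for Mrps30, -0.642 to -0.23 for Mrps34, 0.0389 to 0.457 for Mrps36 and 0.139 to 0.267 for Mrps6. Depth limits the scarce members most: Mrps34 and Mrpl14 had 484 and 495 counts over all libraries.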

Other observations

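Mrps36, the dehydrogenase subunit, was the member with the widest spread in KO relative to its mean, at 37.8, 19.6 and 35.1 CPM against 24.1, 28.4 and 27.5 in WT (log2 fold change 0.21, with its 95% interval between -0.18 and 0.60). Without KO 1 the log2 fold change was 0.04, without KO 3 0.11, and without KO 2 0.46 (edgeR adjusted p = 0.256, unadjusted p = 0.000859). It has 3 annotated processed pseudogenes in the table, with 24, 10 and 0 counts over the 6 libraries, and how reads were shared among them is not known. Mrpl48 and Mrpl23 have 1 each, with 105 and 35 counts.

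Genes like Mrpl53 that share most of their exons with a gene on the same strand were often at 0. Of protein-coding genes with over 80% of their exonic bases shared in this way 159 (63.9%) had 0 counts in all 6 libraries, against 2477 of 20207 (12.3%) of those that share no base on their strand. How the counting treated reads in shared exons was not tested.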
